A study of Mus musculus with 8 samples.

Results

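Immediate early genes are switched on within minutes of a stimulus, before any new protein has to be made. Growth factor, calcium and stress signals reach them through kinases that act on factors already bound at their promoters, and their mRNAs are soon degraded again. In skeletal muscle they are known to respond to contraction, stretch, injury and handling of the tissue. The 10 immediate early genes described here form a list set by name, chosen with earlier results of these data known. They were found in the deposited table by their Ensembl identifiers, and all 10 were present among 55487 identifiers. They are the AP-1 subunits Fos, Fosb, Jun and Junb, the ATF/CREB family factor Atf3, the zinc finger factors Egr1, Klf4 and Klf6, and Ier2 and Btg2.

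RNA was measured in the hindlimb muscle of 8 male C57BL/6J mice aged 10 weeks, all of 1 group labelled Immobilization K14Q MOTS-c. Casts kept the hindlimbs still for 8 days while the mice received K14Q MOTS-c at 15 mg/kg/day in 2 intraperitoneal injections a day. MOTS-c is a peptide encoded in mitochondrial DNA, and K14Q is its form with glutamine in place of lysine at position 14. The labels name vastus lateralis as the muscle, whereas the study's methods name gastrocnemius. Control mice given water and mice given the unchanged peptide were not analysed here, so no level below can be attributed to the cast or the peptide, and the results describe how the genes differed between mice of 1 condition. How long before tissue collection the last injection was given, and how long the collection took, are not given in the sources used here.

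The values are normalized counts, that is, reads per gene divided by 1 size factor per library. The libraries held 23985356 to 33012497 reads, and the 10 most abundant genes took 18.8% to 26.2% of them, with the lowest share in mouse 3 and the highest in mouse 1. Of all genes, 15135 had at least 10 reads in every library, and 9 of the 10 immediate early genes were among them. Fosb had 2 reads in mouse 1 and was left out of tests across all genes. All 8 genes of the skeletal muscle fibre list, which holds the fast myosins, Acta1 and Ckm, were present in every library. Their summed level ran from 1.76e+06 normalized counts in mouse 3 to 3.52e+06 in mouse 1. Muscle also holds vessels, immune cells and blood, and in such bulk RNA fewer cells of a type and less RNA per cell cannot be told apart.

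Promoter sequence is shown for 4 members, because Klf4 and Atf3 had levels close in order to Fos over the mice and Jun ran the other way. Each line holds the 250 bases before the RefSeq start on GRCm38.p6, read 5′ to 3′ on the gene's strand. Capitals mark TGACG, the core of the cAMP response element, or its reverse complement CGTCA. The Fos window is chr12:85473640-85473889 on the plus strand. The other windows are on the minus strand, at chr4:55532476-55532725 for Klf4, chr1:191183334-191183583 for Atf3 and chr4:95052223-95052472 for Jun. GENCODE M21 places no exon in the Fos, Klf4 and Jun windows, while the last 7 bases of the Atf3 window lie in an exon of an Atf3 transcript. The Atf3 window lies inside the annotated gene, whose 5′ end is at 191218039, and so precedes an internal start.
Fos: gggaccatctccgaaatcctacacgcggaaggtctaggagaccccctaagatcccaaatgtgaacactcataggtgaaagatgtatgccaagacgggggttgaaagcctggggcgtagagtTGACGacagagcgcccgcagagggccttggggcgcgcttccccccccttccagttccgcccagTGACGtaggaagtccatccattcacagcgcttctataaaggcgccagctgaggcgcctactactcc
Klf4: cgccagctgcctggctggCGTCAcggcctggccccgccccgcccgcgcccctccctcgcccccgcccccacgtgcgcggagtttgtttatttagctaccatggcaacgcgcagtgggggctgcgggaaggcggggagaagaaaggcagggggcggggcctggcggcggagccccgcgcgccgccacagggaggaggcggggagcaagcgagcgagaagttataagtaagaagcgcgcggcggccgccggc
Atf3: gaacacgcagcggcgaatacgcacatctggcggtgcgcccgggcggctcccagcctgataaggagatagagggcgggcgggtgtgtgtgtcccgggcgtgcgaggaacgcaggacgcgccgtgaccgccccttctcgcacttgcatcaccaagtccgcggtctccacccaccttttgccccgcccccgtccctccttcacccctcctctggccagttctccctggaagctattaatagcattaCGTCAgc
Jun: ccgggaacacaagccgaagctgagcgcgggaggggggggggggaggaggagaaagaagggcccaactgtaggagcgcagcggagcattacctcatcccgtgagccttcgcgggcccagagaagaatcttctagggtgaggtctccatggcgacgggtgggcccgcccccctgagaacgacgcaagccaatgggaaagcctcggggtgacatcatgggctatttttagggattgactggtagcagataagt
The Fos window held this core at 2 places, which began 129 and 66 bases before the start. In Klf4 it began 232 bases before the start and in Atf3 at 7 bases, and the windows of Jun and, not shown here, Klf6 held none. Of the 8 members with a sequence in the table used, 6 held it (Fos, Fosb, Junb, Klf4, Atf3 and Btg2), as did 17.8% of 32851 RefSeq windows of the same length. The full element TGACGTCA, in which the core lies on both strands, was found in Btg2 alone of the 8, and in 1.55% of all windows. The zinc finger factor site GCGNGGGCG was found on either strand in Fosb, Klf4 and Btg2 and in 4.70% of all windows, and TATAA on the gene's strand in Fos and Klf4 and in 16.0% of all. No window of the 8 held the AP-1 site TGANTCA or a CArG box, the element bound by serum response factor; these were in 6.75% and 1.47% of all windows. A match says only that these letters are present, and a missing match does not show that the members lack such a site. Variants of the letters, sequence beyond the 250 bases and the promoters of Egr1 and Ier2 were not searched. The Jun window, for example, holds tgacatca, which differs from the full element TGACGTCA by a single letter.

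By their medians the members are compact genes, although Atf3 spans 47744 bases. The median number of exons in their longest transcripts was 3 (range 1 to 5), against 8 for the 12361 protein-coding genes with at least 10 reads in every library, and the median gene span was 4698.5 against 24880 bases. Jun, Junb and Ier2 have a single exon there. Their median transcript GC content was 55.1%, against 49.7%. On the opposite strand Jun is overlapped by the noncoding gene Junos, Junb by Prdx2 and Atf3 by Gm24748. The use of strand in counting is not given in the sources used here, so reads of these pairs could not be told apart.

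Levels of different genes were compared as normalized counts per kilobase of exonic sequence. On this scale Jun was the highest member, at 1099.6 ± 189 (SD, n = 8), above 92.4% of the genes tested, and it exceeded the next gene in 8 of 8 mice. Klf6 (583 ± 47.9) and Btg2 (523 ± 193) came next and did not differ beyond their spread, since Klf6 was the higher in 4 of 8 mice. Junb followed at 346 ± 128. Klf4 (185 ± 35.5) and Fos (175 ± 106) were close, with Klf4 higher in 5 of 8 mice. Egr1 lay at 80.3 ± 33.5, below Fos in 8 of 8 mice. Ier2 (60.6 ± 10.9) and Atf3 (55.7 ± 32.7) overlapped, with Ier2 higher in 5 of 8 mice. Fosb was the lowest, at 4.07 ± 1.89, above 1.74% of the genes. The order of these levels thus placed the AP-1 subunits at both ends.

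**Figure D1:**
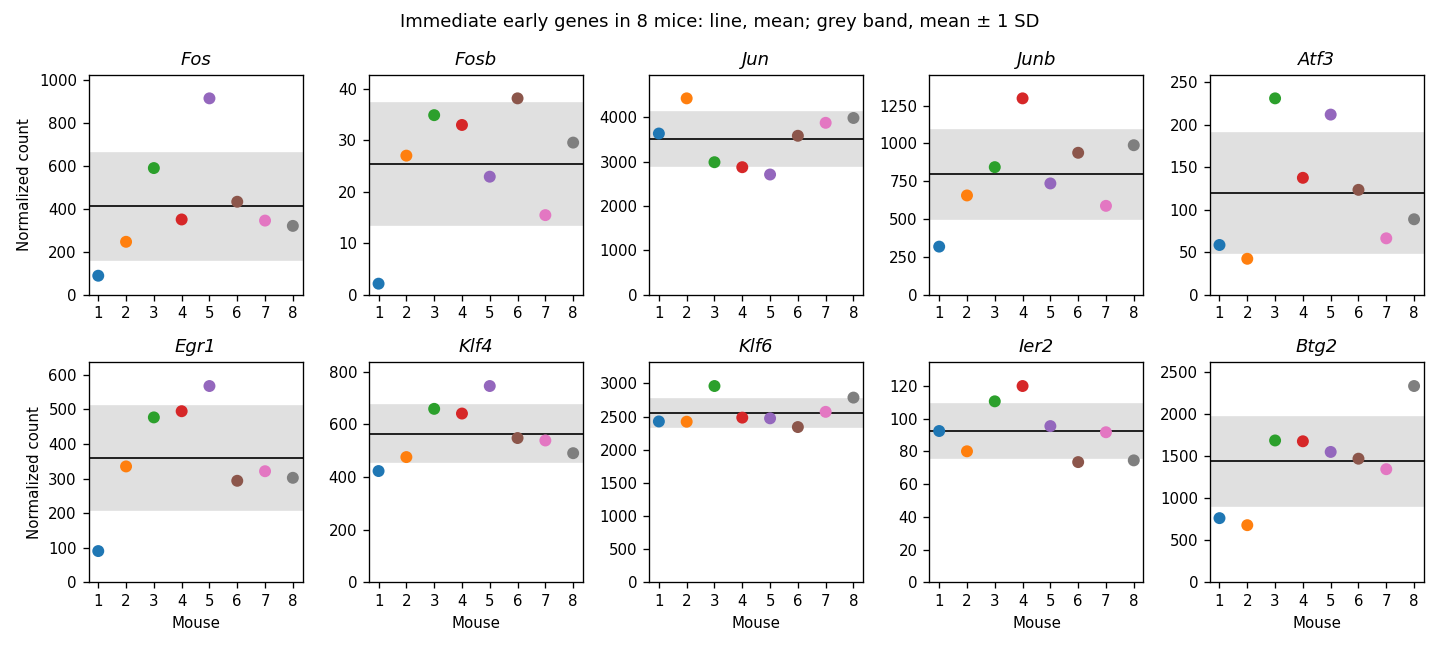
Normalized count of each immediate early gene (vertical axes, each from 0) in mice 1 to 8 (horizontal axes), with the mean as a line and the mean ± 1 SD as a grey band. Mouse 1 was the lowest for Fos, Fosb, Junb, Egr1 and Klf4, and mouse 5 was the highest for Fos, Egr1 and Klf4 and the lowest for Jun.

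Among the AP-1 subunits, Fos, which pairs with Jun proteins to bind DNA, ranged most widely of the 9 members above the read minimum. Its normalized count was 88.1 in mouse 1, the lowest, 916 in mouse 5, the highest, and 348 at the median. Mouse 3, at 591, was the second highest, and the other 5 mice lay between 246 and 433. The ratio of the highest to the lowest mouse was 10.4, larger than that of 99.9% of the genes tested, and the coefficient of variation was 60.6%. With the expected counting error taken out, the coefficient was 60.4%. The ratio was 3.72 without mouse 1, and the coefficient was 45.7% without mouse 5.

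Fosb, the close relative of Fos, had 2.12 normalized counts in mouse 1, where it rested on 2 reads (95% exact Poisson interval 0.242 to 7.22 reads, counting error only). Its median was 28.3 and its highest value 38.2, in mouse 6. In mouse 5, where Fos was highest, Fosb stood at 22.9, below its own mean of 25.4. Junb ran from 317 in mouse 1 through a median of 789 to 1299 in mouse 4, a ratio of 4.09, or 2.21 without mouse 1. Mouse 5, at 735, was again not among the highest. Prdx2, which overlaps Junb, had between 1113 and 1656.

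Jun, the main partner of Fos, varied far less and in another order of mice. It ran from 2707 in mouse 5 through a median of 3606 to 4424 in mouse 2. The 3 lowest values were in mice 5, 4 and 3 (2707, 2872 and 2984). The ratio of the highest to the lowest mouse was 1.63 and the coefficient of variation 17.2%. Junos, which overlaps Jun, had between 93.1 and 176 normalized counts.

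Atf3, a stress-induced factor of the ATF/CREB family, had its lowest value of 42.2 in mouse 2, a median of 106 and its highest value of 231 in mouse 3. Mouse 5 followed at 212 and mouse 4 at 137. Its ratio of 5.48 was larger than that of 99.4% of genes.

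Of the zinc finger factors, Egr1, an activator induced by growth factors, was at 90.2 in mouse 1, 328 at the median and 568 in mouse 5. Mice 4 and 3 followed at 495 and 477, and the other 4 mice held 294 to 335. Its ratio was 6.29, and 1.93 without mouse 1. Klf4, known for its part in pluripotency and in vascular cells, ran from 423 in mouse 1 through 543 at the median to 746 in mouse 5, with mice 3 and 4 next at 659 and 641. The mice at its upper end were thus those of Egr1, over a narrower range of 1.76. Klf6 had 2342 in mouse 6, a median of 2480 and 2962 in mouse 3. Its coefficient of variation of 8.22% was the lowest of the members and larger than that of 10.0% of genes. With library totals in place of size factors it was 15.7%, above the 13.2% of Jun, so this order rests on the scaling.

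Ier2, a nuclear protein induced by growth factors, had between 73.4 in mouse 6 and 120 in mouse 4, with a median of 92.0. Btg2, an antiproliferative cofactor of mRNA deadenylation, was at 678 in mouse 2 and 761 in mouse 1, at a median of 1507 and at 2329 in mouse 8. The 6 mice other than 1 and 2 held at least 1342, with a gap to the lower pair.

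In 5 of the 9 members above the read minimum (Fos, Junb, Atf3, Egr1 and Btg2), the highest mouse had at least 2 times the value of the lowest, while 22.9% of all 15135 genes did. Without mouse 1, Egr1 no longer did and 4 members were left. Among the 10360 genes whose mean lay within the range of the members' means (92.2 to 3507), 13.1% did. The median coefficient of variation was 36.9% over the 9 members, 15.6% over all genes tested and 13.5% over genes in the same range of level. These are descriptions, and the members were not drawn at random. Jun, Klf4, Klf6 and Ier2 had ratios of 1.63, 1.76, 1.26 and 1.63, beside a median of 1.49 for genes in that range.

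**Figure D2:**
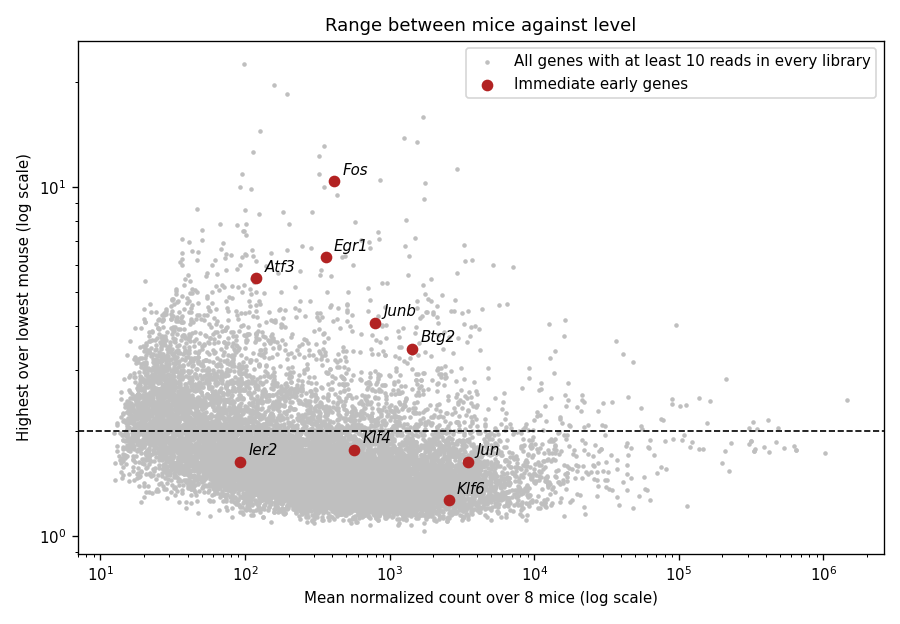
Ratio of the highest to the lowest mouse against the mean normalized count over 8 mice, both on log scales, for all genes with at least 10 reads in every library (grey) and for 9 immediate early genes (red), with a dashed line at a ratio of 2. Fos (10.4), Egr1 (6.29), Atf3 (5.48), Junb (4.09) and Btg2 (3.44) lie above the line, and Klf4, Jun, Ier2 and Klf6 below it.

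The levels over the mice were then compared between members, on log2(normalized count + 1). The median Pearson r over the 45 pairs was 0.48, with a range from -0.88 to 0.90, and the median over all 114526545 pairs of genes tested was -0.001. An r of at least 0.7, a limit chosen after the values were seen, was reached by 10 of the 45 pairs (22.2%) and by 4.98% of all pairs. The 45 pairs include Fosb, which was under the read minimum, while the pairs over all genes do not. Fosb with Fos, Junb and Egr1 are among the 10, and Fosb with Egr1 had r = 0.85 but a Spearman's rho of 0.14. Without Fosb the median over the member pairs was 0.44. All 10 negative pairs held Jun or Ier2. Among the other 8 members the 28 pairs ran from 0.23 to 0.90, with a median of 0.60. Since Jun and Ier2 were left out for their negative pairs, this positive range follows from that choice. The highest pairs were Fosb with Junb (0.90), Fos with Egr1 (0.90), Fos with Klf4 (0.90) and Atf3 with Klf4 (0.88). By order of the mice alone, their Spearman's rho was 0.79, 0.64, 0.98 and 0.93. The lowest were Jun with Atf3 (-0.88), Jun with Klf4 (-0.85) and Jun with Ier2 (-0.73). All pairs share the same 8 libraries. The median over the 45 pairs dropped to 0.20 without mouse 1, which was low in 5 members, and was between 0.41 and 0.54 when any other mouse was left out.

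**Figure D3:**
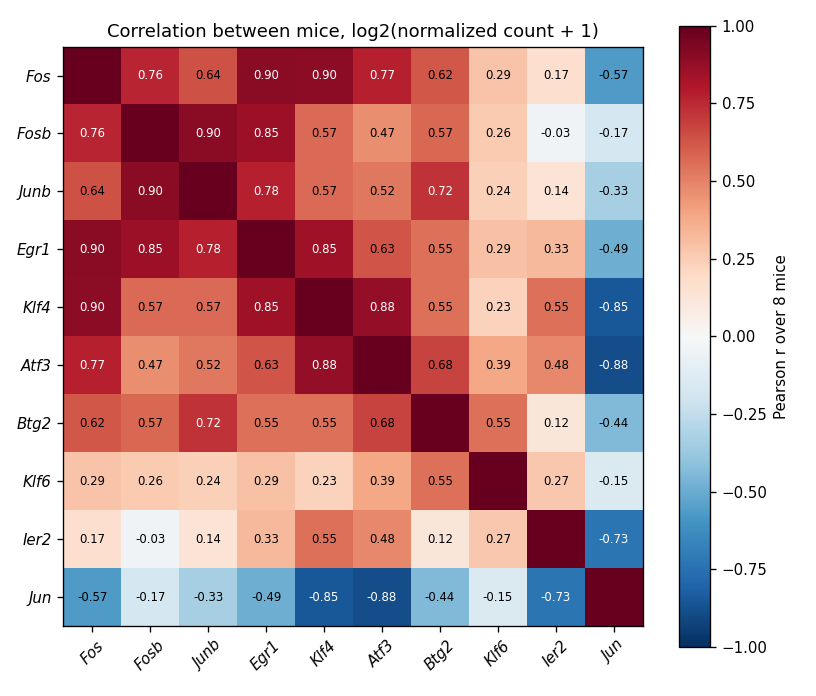
Pearson r over 8 mice between each pair of the 10 immediate early genes, on log2(normalized count + 1), with red for positive and blue for negative values on a scale from -1 to 1. The Jun row is blue throughout, from -0.15 with Klf6 to -0.88 with Atf3, and Klf4 with Atf3 and with Fos reach 0.88 and 0.90.

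Fos, the first member listed, served as the reference for tests over the mice. With an exact permutation test over the 40320 pairings of 8 mice, two-sided, Klf4 had r = 0.90 with Fos (p = 0.00149; Spearman's rho = 0.98, p = 0.000397). Without mice 1 and 5, the farthest from the median Fos level, r was 0.77. Atf3 had r = 0.77 (exact p = 0.0161; rho = 0.90, p = 0.00456), and 0.91 without those mice. Egr1 had r = 0.90 (exact p = 0.00677), but rho = 0.64 (exact p = 0.0962) and r = 0.42 without mice 1 and 5, so its relation rested on these 2 mice.

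For Jun, r was -0.57 (exact p = 0.139; rho = -0.79, p = 0.0279) and -0.72 without mice 1 and 5. Fosb (r = 0.76, exact p = 0.0648), Junb (0.64, exact p = 0.0979) and Btg2 (0.62, exact p = 0.103) were positive with larger p. Without mice 1 and 5 their r was 0.40, 0.23 and 0.51. Without mouse 1 alone it was 0.023 for Fosb, -0.028 for Junb and 0.37 for Btg2, so those of Fosb and Junb rested on mouse 1. Klf6 (r = 0.29, exact p = 0.477) and Ier2 (0.17, exact p = 0.708) had no relation with Fos that was detectable in 8 mice. These p values are not adjusted for the 9 relations, and none of the 8 relations that could be fitted with all genes passed adjustment there.

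**Figure D4:**
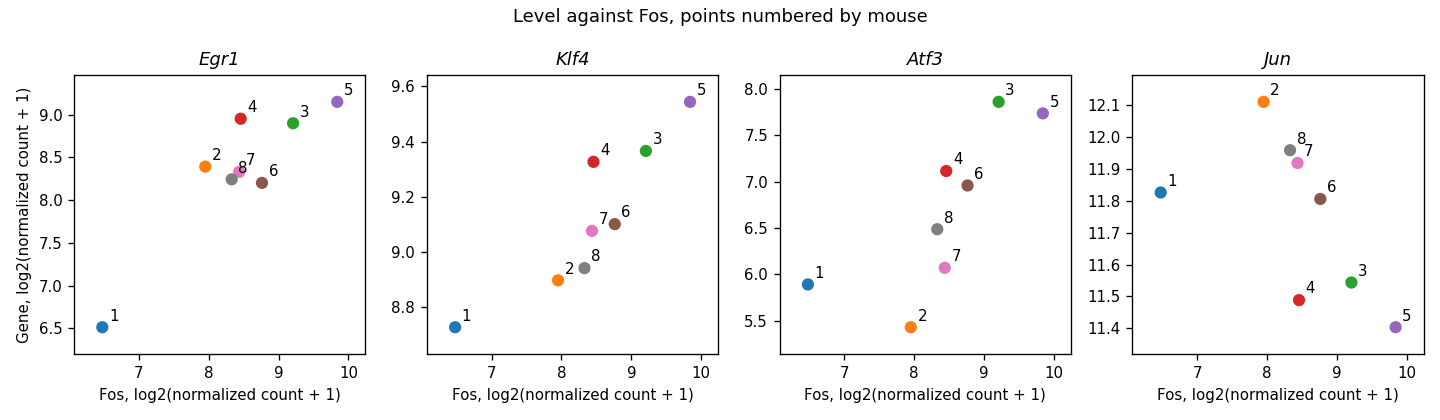
Level of Egr1, Klf4, Atf3 and Jun (vertical axes) against Fos (horizontal axes), all as log2(normalized count + 1), with points numbered by mouse. In the Egr1 panel mouse 1 lies apart at the low end. Klf4 and Atf3 increase with Fos (r of 0.90 and 0.77), and Jun is lowest in mouse 5.

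Across all genes, a slope on the log2 Fos level was fitted with limma, with Benjamini-Hochberg adjustment over 15134 genes. None passed an adjusted p of 0.05, that is 0% of genes and 0 of the 8 members tested. At an unadjusted p under 0.05 there were 1167 genes with limma and 1167 with edgeR's quasi-likelihood test, which also called 0 genes after adjustment. Of the 8 members, 5 (Junb, Atf3, Egr1, Klf4 and Btg2) had an unadjusted p under 0.05 with a positive slope, as did 4.53% of genes. Egr1 had the second smallest p of all genes, with a slope of 0.76 ± 0.12 (SE) log2 units per log2 unit of Fos and a limma adjusted p of 0.242. The slope was 0.69 ± 0.18 for Atf3 (limma adjusted p = 0.473) and 0.25 ± 0.06 for Klf4 (limma adjusted p = 0.451). For Jun it was -0.15 ± 0.08 (limma adjusted p = 0.669). The ratios without mouse 1 were 3.72 for Fos, 5.48 for Atf3, 1.93 for Egr1 and 1.57 for Klf4.

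The other genes of the pathway came from 9 lists, also chosen with earlier results of these data known. They held 105 genes in all, of which 96 had at least 10 reads in every library. None of the 96 passed the limma test after adjustment. At an unadjusted limma p under 0.05, 9 were positive and 1 negative, beside 685 (4.53%) and 482 of all 15134 genes. By r with Fos, 66 of 96 (68.8%) were positive, beside 51.6% of all genes. The gene with the smallest p of all genes tested was Dusp1, a phosphatase that switches off MAP kinases and is itself an immediate early gene (slope 0.44 ± 0.07, limma adjusted p = 0.242). Its normalized count ran from 459 in mouse 1 to 1296 in mouse 5, and its r with Fos was 0.94 (exact p = 0.00117), or 0.76 without mice 1 and 5.

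The next of the 8 pathway genes with the highest r were Per1, a clock gene also induced by cAMP signals (0.90), Csrnp1 (0.85), the small heat shock protein gene Hspb1 (0.78), the nuclear receptor gene Nr4a3 (0.77), the CREB coactivator gene Crtc2 (0.73), Klf2 (0.73) and the AP-1 subunit gene Jund (0.70). Without mice 1 and 5, r fell by the most for Crtc2, to -0.11, and was 0.40 for Per1 and 0.45 for Hspb1, while Csrnp1, Jund, Klf2 and Nr4a3 were at 0.64 to 0.78. Nr4a3 had 1343 normalized counts in mouse 5 and 109 to 226 in the others. The most negative of the lists was Crem, a factor of the CREB family, named after its values were seen, at r = -0.87, or -0.41 without mice 1 and 5.

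By list, r with Fos was positive for 24 of 28 other immediate early genes (median 0.32), 6 of 11 other bZIP genes (median 0.17) and 2 of 3 EGR and NAB genes (median 0.04). It was positive for 8 of 12 genes of SRF, its partners and CREB factors (median 0.16), 5 of 6 dual specificity phosphatases (median 0.29) and 8 of 11 other KLF genes (median 0.21). Heat shock genes were positive in 5 of 6 (median 0.17), glucocorticoid targets in 3 of 5 (median 0.45) and MAP kinase genes in 5 of 14 (median -0.09). The median over all genes was 0.02.

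**Figure D5:**
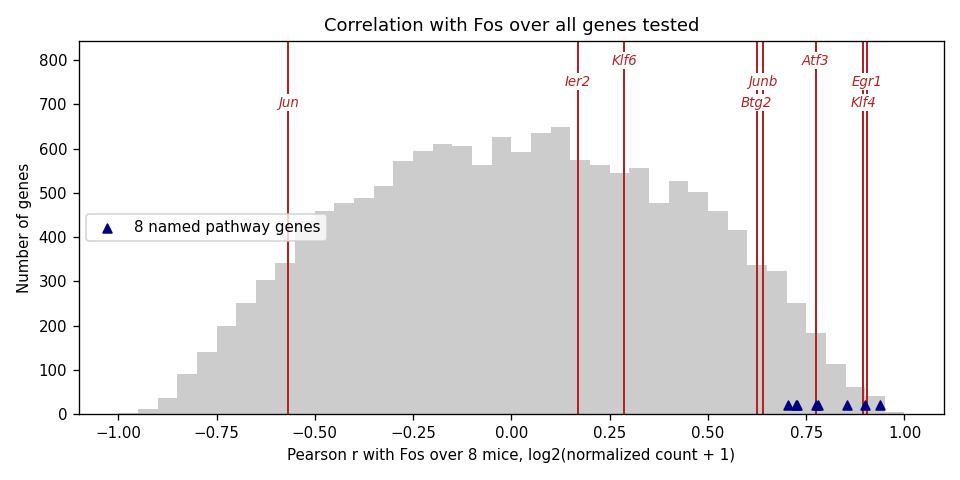
Number of genes (vertical axis) by Pearson r with Fos over 8 mice (horizontal axis) for all genes tested, with red lines at 8 immediate early genes and triangles at the 8 pathway genes with the highest r, which were picked for it. Egr1 and Klf4 lie at 0.90 at the upper end, Klf6 and Ier2 near the middle and Jun at -0.57.

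The 10 genes with the highest r with Fos, members set apart, were Clpp, Ttc1, Zc3h12a, Gm12034, Gm6823, 2810402E24Rik, Nap1l1, Psmd6, Eif2b4 and Dusp1. Clpp, the protease subunit of the mitochondrial matrix, had the highest r, 0.99, with a slope of 0.16. Zc3h12a, which encodes an RNase that degrades mRNAs of inflammatory genes and is itself quickly induced, had r = 0.96 and a slope of 0.39 ± 0.07 (limma adjusted p = 0.277). Gm12034 and Gm6823 are processed pseudogenes, whose reads can come from their parent genes. Egr1 stood 39th, Klf4 55th and Atf3 314th among 15134 genes by r.

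Since Jun and Klf4 gave the strongest opposite pair after Jun with Atf3, the same limma fit was made with every other member in place of Fos, a choice made after the data were seen. On Jun, 91 genes passed (0.601% of 15134), 65 of them positive. Atf3 was the only member among them, with a slope of -3.07 ± 0.54 log2 units per log2 unit of Jun (limma adjusted p = 0.0335, and between 0.0326 and 0.861 over 14 alternatives, 7 of which kept it under 0.05, with slopes of -3.42 to -2.76). On Klf4, 72 genes passed (0.476%), 27 of them positive. Fos (slope 3.22 ± 0.51, limma adjusted p = 0.0339) and Atf3 (2.82 ± 0.51, limma adjusted p = 0.0485) were among them. Over 14 alternatives the adjusted p ran from 0.0125 to 0.0965 for Fos, with 9 under 0.05 and slopes of 2.32 to 3.53. For Atf3 it ran from 0.00784 to 0.151, with 6 under 0.05 and slopes of 2.47 to 3.23. On Atf3 2 genes passed, and on each of the other 6 members none did with limma, at 685 to 2801 genes with an unadjusted p under 0.05. The p values were adjusted within each fit and not over the choice of reference gene. In the fits made the other way these relations did not pass. The limma adjusted p was 0.130 for Jun and 0.131 for Klf4 on Atf3, and 0.451 for Klf4 on Fos.

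The fits on Jun and Klf4 are not separate results, since both use the same 8 mice and the 2 genes had r = -0.85. Of the 91 and 72 genes, 32 were in both (35.2% and 44.4%), with the opposite signs that this r leads to.

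These counts were unsteady. With library totals in place of size factors, 0 genes passed limma on Jun (823 at an unadjusted p under 0.05) and 938 on Klf4, and leaving out a mouse gave 11 to 198 genes on Jun and 4 to 72 on Klf4. Among the genes that passed on Jun, and named after their values were seen, were Prkag3, a regulatory subunit of AMP-activated protein kinase in fast muscle, with a slope of 2.39, and Amd1 and Sms, enzymes of polyamine synthesis, with slopes of 3.16 and 1.76. Amd1 shares sequence with pseudogenes that also passed, so its reads may be split. Ccn2, a matrix gene of the list of other immediate early genes, was negative on Jun, at -1.69.

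Properties of the libraries were set beside the members, and none of 20 relations passed adjustment. The share of reads in the 10 most abundant genes had r = -0.87 with Atf3 (exact permutation p = 0.00655, adjusted p = 0.125 over 20 relations), -0.80 with Klf4, -0.75 with Junb, -0.73 with Egr1, -0.69 with Btg2, -0.68 with Fos, -0.64 with Fosb, -0.60 with Ier2, -0.53 with Klf6 and 0.76 with Jun. Without the 2 mice farthest in that share, r was 0.83 for Jun, -0.85 for Junb, -0.80 for Atf3, -0.68 for Klf4 and -0.67 for Egr1, and between -0.63 and -0.0081 for the other 5 members, with Fos at -0.41. With the total reads of the libraries, r ran from -0.56 to 0.21 over the members.

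The summed red blood cell list, which holds the globin genes and Alas2, was highest in mice 5 and 3 (28320 and 24713 normalized counts), the mice with the most Fos and Atf3, and 7060 to 13279 in the others. Its r with Fos was 0.73 (exact permutation p = 0.0343, adjusted p = 0.291 over 33 relations) and 0.58 without mice 1 and 5, and with Klf4 it was 0.77 (exact permutation p = 0.0277, adjusted p = 0.291). Its rho was lower, at 0.64 with Fos (exact p = 0.0962) and 0.62 with Klf4 (exact p = 0.115). All 5 genes of the list were positive on Fos at an unadjusted limma p under 0.05, as were 4.53% of all genes, and none passed adjustment. These 5 genes mark the same cell type and are not separate observations. The muscle fibre list had r = -0.61 with Fos, -0.78 with Klf4 and 0.75 with Jun, each with an adjusted p of at least 0.291 by exact permutation. Its rho was -0.86 with Fos (exact p = 0.0107), -0.90 with Klf4 (exact p = 0.00456) and 0.74 with Jun (exact p = 0.0458). Without the 2 mice farthest in each gene, r was -0.73, -0.95 and 0.81. With Jun, r of the red blood cell list was -0.59. The 9 other marker lists had r between -0.46 and 0.14 with Fos, between -0.60 and 0.29 with Klf4 and between -0.49 and 0.69 with Jun, the outer values with Klf4 (-0.60) and Jun (0.69, exact permutation p = 0.0605, adjusted p = 0.399) being those of the satellite cell list. Neutrophil genes were scarce, at 2.21 normalized counts in sum in mouse 7 and at most 85.8, in mouse 4. The macrophage list ran from 1320.2 in mouse 8 to 3168 in mouse 4. The part of the muscle fibre share and of blood in the levels of the members was not tested.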

How the data were processed

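RNA-seq of 8 mice of 1 group was used. Per the labels and the methods, the authors trimmed and checked reads with fastp and FastQC, mapped them with STAR to GRCm38.p6, counted them per gene with summarizeOverlaps and normalized with DESeq2. The deposited values are a signal: each is a read count divided by 1 size factor per library (0.906 to 1.20). Reads were recovered from the steps of the values, and 100% were whole within 0.01 of a read. Raw counts had been foreseen as possible, so limma on log2(value + 1) was the test planned for normalized values, and edgeR on the recovered reads was an alternative. Of 55487 identifiers, 55227 matched GENCODE M21 on GRCm38, which gave symbols, positions and exonic lengths. Promoters are RefSeq sequences, found for 8 of 10 members and named only for Egr1 and Ier2.

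Genes with at least 10 reads in every library were tested (limma with a trend, slope on log2 Fos, two-sided, Benjamini-Hochberg over all genes). Single relations were tested by exact permutation. The named genes were all members, the 10 genes with the highest r with Fos and, since under 5 pathway genes passed, the 8 pathway genes with the highest r. Other names were chosen after their values were seen and are given as such. Members and lists were chosen with earlier results of these data known. Alternatives were TMM factors, library totals, a pseudocount of 5, a minimum mean of 5, edgeR, Egr1 as reference, Spearman's rho and leaving out each mouse. Fits on other members and taking out trends on GC content and length (15101 of 15136 genes, that is those tested and Fosb, had values) were added after seeing the data. The fits were tested on simulated counts drawn independently for each gene. Such counts lack differences shared by many genes, so this check does not bear on how steady the counts of genes passing are. Depth was 23985356 to 33012497 reads per library, without molecular identifiers, so intervals cover counting error only. That each library is a separate mouse was taken from the study's methods. Fits used limma 3.58.1 and edgeR 4.0.16 in R 4.3.3, and the rest scipy 1.17.1, pandas 2.3.3 and numpy 2.4.6 in Python 3.11.15.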

Additional observations from a re-analysis of the deposited data

Results flagged for a closer look

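The members and a set of other named genes, mainly those picked for a high r with Fos, were each checked for 1 mouse far from the other 7. The measure was the gap to the nearest mouse divided by the whole range. Not every gene named in this report was in the set. None of the 10 members was past the 95% limit for 8 samples, although mouse 1 was the lowest in 5 of them. Of 29 genes checked, 3 were past it. Chance flags about 1 in 20 groups, but that rate does not apply to these 3, which were named for a high r with Fos, a gene extreme in mice 1 and 5. Nr4a3, an orphan nuclear receptor gene, stood apart in mouse 5, with 0.905 of its range above the next mouse (1343 against at most 226 normalized counts). The pseudogene Gm6823 was also high in mouse 5 (0.561), and Nap1l1, a histone chaperone gene, stood apart in mouse 1 (0.586). Of the 96 pathway list genes with at least 10 reads in every library, 5 were past the limit.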

How the results depend on the processing

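No paired analysis was possible because a single group was analysed here. The number of members whose highest mouse had at least 2 times the lowest was 5 under TMM factors, library totals and with GC content and length trends taken out, 6 of 10 with a minimum mean of 5, which let in Fosb, and 4 to 5 leaving out each mouse. No gene and no member passed on Fos under any alternative run, nor with Egr1 as reference. Leaving out each mouse gave a median pairwise r of 0.20 (mouse 1 out) to 0.54 (mouse 5 out), and it ran from 0.43 to 0.68 under the other alternatives. The count on Jun, 91, was 0 with library totals and 11 to 198 leaving out each mouse (198 without mouse 2, 11 without mouse 3, 12 without mouse 5, 17 without mouse 7, 19 without mouse 6 and 24 without mouse 4). The count on Klf4, 72, was 938 with library totals, 39 with a minimum mean of 5, 35 with GC content and length trends removed, 44 with edgeR and 4 to 72 leaving out each mouse (4 without mouse 3, 5 without mouse 2, 9 without mouse 4, 17 without mouse 6, 20 without mouse 5, 37 without mouse 1 and 49 without mouse 7). The causes were not tested. Library totals shift the median of all genes by -0.13 (mouse 7) to 0.21 (mouse 3) on the log2 scale relative to the size factors. Leaving out each mouse, the r of Junb with Fos ran from -0.028 (mouse 1 out) to 0.79 (mouse 5 out), and no other r of a member with Fos changed sign under the alternatives. Without mouse 1, r of Fosb with Fos was 0.023. With another scaling, the coefficients of variation moved by more than their jackknife error in 4 of 20 cases, all with library totals: Klf6 to 15.7%, Jun to 13.2%, Klf4 to 25.3% and Ier2 to 26.0%. Without mouse 1 that of Fosb went from 46.5% to 26.9% and that of Egr1 from 41.7% to 27.9%. Fosb had the fewest reads, at most 42, and its coefficient of variation was 42.1% with counting error taken out. That of Ier2, which had 68 to 133 reads, was 18.0%, and 14.6% with counting error taken out.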

Other observations

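Nr4a1, the nuclear receptor gene induced by contraction and cAMP signals, ran from 1094 normalized counts in mouse 4 to 3763 in mouse 5 and 3533 in mouse 7. Its r with Fos was 0.53 (exact permutation p = 0.174) and 0.03 without mice 1 and 5. Mouse 7, the second highest for Nr4a1, was not among the highest for Fos, Egr1 or Klf4. Maff, Mafk and Socs3 were positive on Fos at an unadjusted limma p under 0.05, with slopes of 0.42, 0.27 and 0.43, and Rps6ka1, a kinase downstream of ERK, was the 1 list gene negative at that level, with a slope of -0.30. None of these passed adjustment over all genes. The Schwann cell list was highest in mouse 7 (5141 normalized counts) and lay between 2223 and 3098 in the others.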
